A study of Mus musculus with 3 samples.

Results

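Cxcl1, Cxcl2, Cxcl3 and Cxcl5 encode CXC chemokines that attract neutrophils in the mouse. They were read in dendritic cells grown from bone marrow, as every probe set whose platform annotation held exactly 1 gene symbol equal to a member. The rule gave 6 probe sets of these 4 genes (3 for Cxcl1 and 1 for each other gene), out of 18193 genes with a probe set of 1 symbol. Marrow was taken from female mice of 6 weeks, and the cells were grown with GM-CSF at 20 ng/mL, with nonadherent cells collected on day 7. All groups then spent 24 h in culture. The control received PBS (strain C57BL/6), the LPS group received lipopolysaccharide at 1 µg/mL (C57BL/6), and the PTX group received PTX at 100 ng/mL (strain label C57BL/7). The labels do not spell out PTX, nor say whether animals were pooled or shared between groups. Each group held 1 array, so no difference had a replicate check, no test was possible, and differences are given by their size. The precision of each value is limited by this number of arrays.

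As background, these chemokines act on neutrophils mainly through the G protein-coupled receptor Cxcr2. Macrophages, dendritic cells, epithelium and stroma release them when Toll-like receptors or receptors of Il1, Tnf and Il17 are engaged. Their genes are transcribed through NF-kB, and their messenger RNAs carry AU-rich elements through which proteins such as tristetraprolin (Zfp36) shorten their life. Cxcl1 (KC) and Cxcl2 (MIP-2) are early products of LPS-treated myeloid cells, Cxcl3 (Dcip1) was described in dendritic cells, and Cxcl5 (LIX) is best known from epithelium and platelets.

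All 4 genes lie on chromosome 5, where RefSeq (GRCm38.p6) lists the protein-coding genes of this stretch in the order Cxcl5, Ppbp, Pf4, Cxcl3, Cxcl15, Cxcl1 and Cxcl2. Promoter entries of RefSeq were matched for 3 of the 4 members, Cxcl1, Cxcl2 and Cxcl3. Their stretches of 250 bases before the annotated gene start are shown, as for every member with an entry, whatever its levels on the arrays. They lie on the + strand of GRCm38.p6 at chr5:90890995-90891244 (Cxcl1), chr5:90903649-90903898 (Cxcl2) and chr5:90785851-90786100 (Cxcl3). Each is printed 5′ to 3′, and capitals mark GGGAATTTCCC, the longest run of bases found in all 3 stretches, and, nearer to the start, the TATA-like motif ATAAAAG.
Cxcl1: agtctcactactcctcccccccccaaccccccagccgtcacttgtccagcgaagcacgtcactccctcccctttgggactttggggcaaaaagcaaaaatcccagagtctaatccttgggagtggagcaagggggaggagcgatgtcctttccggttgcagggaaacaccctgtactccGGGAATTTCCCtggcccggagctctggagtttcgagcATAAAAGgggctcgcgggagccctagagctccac
Cxcl2: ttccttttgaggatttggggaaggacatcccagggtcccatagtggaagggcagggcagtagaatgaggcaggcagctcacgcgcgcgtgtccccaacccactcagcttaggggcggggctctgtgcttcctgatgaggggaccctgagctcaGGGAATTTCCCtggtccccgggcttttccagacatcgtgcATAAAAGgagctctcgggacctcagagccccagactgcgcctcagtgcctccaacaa
Cxcl3: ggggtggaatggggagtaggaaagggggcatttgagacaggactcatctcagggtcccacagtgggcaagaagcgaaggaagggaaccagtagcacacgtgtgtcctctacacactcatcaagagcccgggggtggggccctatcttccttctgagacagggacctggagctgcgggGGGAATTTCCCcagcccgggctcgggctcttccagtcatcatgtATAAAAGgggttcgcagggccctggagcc

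The shared run of 11 bases is an NF-kB site by its letters, matching the NF-kB consensus motif on both strands. It began 71 bases before the start in Cxcl1, 97 in Cxcl2 and 73 in Cxcl3. It was followed by ATAAAAG after 26, 29 and 33 bases, respectively. The canonical TATA box TATAAA was matched in Cxcl3, where it overlaps ATAAAAG, and not in Cxcl1 or Cxcl2. The longest run shared by the Cxcl1 and Cxcl2 stretches extended to the 14 bases GGGAATTTCCCTGG. Aligned over their whole length, the stretches were 49.7% (Cxcl1 and Cxcl2), 50.7% (Cxcl1 and Cxcl3) and 54.7% (Cxcl2 and Cxcl3) identical. The letters of both capitalized motifs were taken from these sequences, so how rarely they occur elsewhere supports nothing about them. On either strand, GGGAATTTCCC was present in 14 of 32851 RefSeq promoter stretches of this length (0.0426%), and ATAAAAG in 4.83%. Both together were in 3 stretches, those of these chemokine genes.

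Other motifs were common or scattered. The NF-kB consensus motif was in 7.25% of all stretches, and in these 3 it was matched within the shared run alone. The GC box GGGCGG (32.7% of all stretches) and the C/EBP motif TTNNGNAA (36.8%) were each matched in Cxcl2 and not in Cxcl1 or Cxcl3. The AP-1 motif TGANTCA (6.75%) and TATAAA (12.4%) were also searched on both strands, and AP-1 was matched in none of the 3. These matches are descriptions of letters and not of binding.

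**Figure D1:**
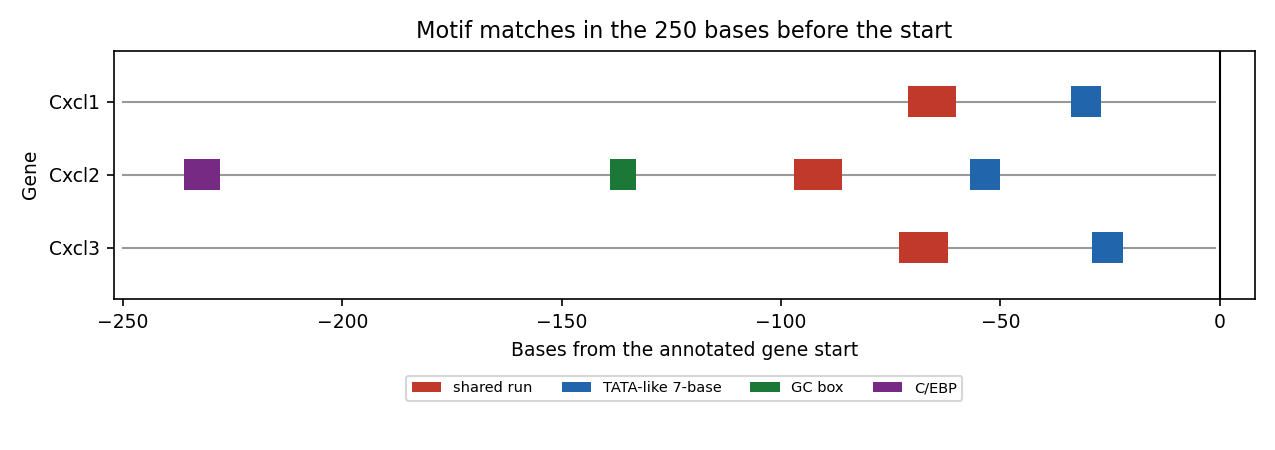
Positions of motif matches in the 250 bases before the annotated start of Cxcl1, Cxcl2 and Cxcl3 (horizontal axis in bases from the start, 1 line per gene). The shared run (dark red) begins 71, 97 and 73 bases before the start and precedes ATAAAAG (blue) in each gene; the NF-kB consensus, which lies within the shared run, and the TATAAA match of Cxcl3 are not drawn.

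The LPS array stood apart from the other arrays, and every value that involves LPS rests on it. The median intensity over all noncontrol probe sets was 85.7 for PBS, 65.3 for LPS and 86.9 for PTX. The 24 bacterial poly-A controls, added RNAs that no mouse cell makes, read higher with LPS than with PBS, by a median of 0.26 on the log2 scale, and differed by a median of -0.07 between PTX and PBS. The ratio of 3′ to 5′ signal of 18S ribosomal RNA was 0.26 (PBS), 1.95 (LPS) and 0.198 (PTX), while that of beta-actin lay between 1.33 and 1.40 and that of Gapdh between 0.963 and 1.12. A gene counted as measured when its brightest probe set reached an intensity of 78.9, the median of all values, on at least 1 array, which kept 12299 genes and all 4 chemokine genes.

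Cxcl1, a chief neutrophil attractant of the mouse, was highest with LPS and lowest with PTX in each of its 3 probe sets. Its brightest probe set read 2019 (PBS), 7223 (LPS) and 366 (PTX). The second read 1640, 5023 and 298, and the third read 1405, 4879 and 312 in the same order. The intensity with LPS was thus 3.06 to 3.58 times that with PBS, and the intensity with PBS was 4.50 to 5.52 times that with PTX. The 3 probe sets were read from the same RNA and are not replicates of a condition. In these cultures fewer cells making a chemokine and less RNA per cell cannot be told apart.

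Cxcl2, the chemokine also called MIP-2, was among the brightest probe sets of the untreated culture. Its intensity was 6975 with PBS, 10398 with LPS and 1594 with PTX. The probe set exceeded 99.5% (PBS), 99.6% (LPS) and 94.8% (PTX) of all probe sets. LPS thus read 1.49 times PBS, and PBS read 4.38 times PTX.

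Cxcl3 followed the same order over a narrower span. It read 6340 with PBS, 9043 with LPS and 3380 with PTX, so that LPS was 1.43 times PBS and PBS was 1.88 times PTX. It stayed above 98.1% of all probe sets even on the PTX array, where it was lowest.

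Cxcl5 behaved differently from the other three. It read 47.6 with PBS, 824.5 with LPS and 44.4 with PTX. The PBS and PTX readings were both under the measured level of 78.9, at 0.604 and 0.563 of it, and lay close together (PTX was 0.932 of PBS). The LPS reading was 10.4 times the measured level and exceeded 90.0% of the probe sets of its array. No direction is read between those 2 readings, and Cxcl5 passed the filter for measured genes through the LPS array alone.

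**Figure D2:**
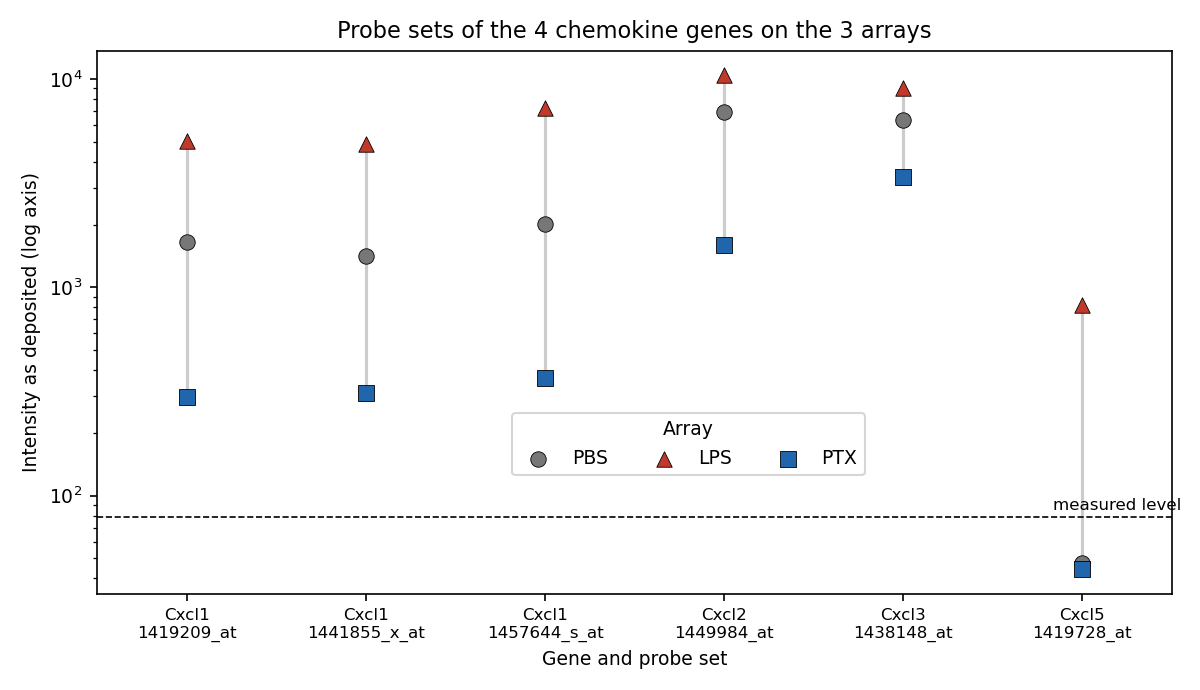
Intensity as deposited (log axis) of the 6 probe sets of Cxcl1, Cxcl2, Cxcl3 and Cxcl5, with 1 point per array (circle PBS, triangle LPS, square PTX) and the measured level of 78.9 as a dashed line. In the probe sets of Cxcl1, Cxcl2 and Cxcl3 the order is LPS, PBS, PTX from top to bottom, whereas Cxcl5 is above the line with LPS (824.5) and below it with PBS (47.6) and PTX (44.4).

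Against PBS, the LPS array had higher values of all 4 chemokines, and 2 of them were at least 2-fold apart. On the log2(intensity + 16) scale, where the pseudocount of 16 makes differences between dim readings smaller, Cxcl5 differed by 3.72 and Cxcl1 by 1.83, while Cxcl2 (0.57) and Cxcl3 (0.51) were within 2-fold. None was at least 2-fold lower, and Cxcl5 passed the filter through the LPS array alone. Over all measured genes 6.50% were at least 2-fold higher in LPS and 13.0% at least 2-fold lower. Cxcl5 ranked 21 from the top of 12299 genes and Cxcl1 ranked 216, whereas 14.0% of genes had a difference as high as that of Cxcl2 and 16.2% one as high as that of Cxcl3. The median of the 4 was 1.20, against -0.08 over all measured genes.

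The sizes of the LPS differences depended on how the arrays were scaled. The median of all measured genes in LPS against PBS was -0.08 as deposited and 0.27 with median centring, and the genes counted as higher made up 33.3% of those 2-fold apart as deposited, 58.1% with median centring, 54.7% with scaling to the 75th percentile and 45.6% with quantile normalization. Relative to that median, over the deposited values, both other pseudocounts and the 3 other scalings, Cxcl1 lay between 1.37 and 1.92 and Cxcl5 between 3.06 and 4.17. Cxcl2 lay between 0.03 and 0.66 and Cxcl3 between -0.06 and 0.60, each lowest with quantile normalization, under which Cxcl3 was not above the median gene.

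Against PBS, the PTX array had lower values of Cxcl1 (-2.41), Cxcl2 (-2.12) and Cxcl3 (-0.90), and Cxcl5 differed by -0.07. The first pair was at least 2-fold lower and no member was at least 2-fold higher, where 2.37% of all measured genes were at least 2-fold lower and 3.04% at least 2-fold higher. Cxcl1 ranked 25 and Cxcl2 ranked 47 from the bottom of 12299 genes. Cxcl3 lay within 2-fold as deposited and passed it with quantile normalization (-1.08), and 3.05% of genes had a difference as low as its deposited value. The median of the 4 was -1.51, against 0.01 over all measured genes, and it includes Cxcl5, which was under the measured level on both arrays. The other probe sets of Cxcl1 differed by -2.40 and -2.11.

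PTX against LPS, the comparison named in the title of the series, set the 2 stimuli side by side. All 4 chemokines were at least 2-fold lower with PTX than with LPS, where 6.24% of all measured genes were. Cxcl5 passed the filter through the LPS array alone, so the count of 4 supports nothing. The 4 measured cytokine genes of neutrophil production were also all at least 2-fold lower. Csf2 and Lif among them passed the filter through the LPS array alone, so that count supports nothing either. Cxcl1 differed by -4.24, Cxcl5 by -3.80, Cxcl2 by -2.69 and Cxcl3 by -1.42. Cxcl1 ranked 6 and Cxcl5 ranked 12 from the bottom of 12299 genes, Cxcl2 ranked 51 and Cxcl3 ranked 340. As deposited intensities, LPS read 19.7 times PTX for Cxcl1 (brightest probe set), 18.6 times for Cxcl5, 6.52 times for Cxcl2 and 2.68 times for Cxcl3. All 4 members remained at least 2-fold lower in each of the 9 alternatives, with Cxcl3 nearest to the limit (-1.13 with quantile normalization). The share of higher genes among those 2-fold apart was 68.7% here, and 40.5% with median centring, 43.8% with the 75th percentile and 53.2% with quantile normalization.

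**Figure D3:**
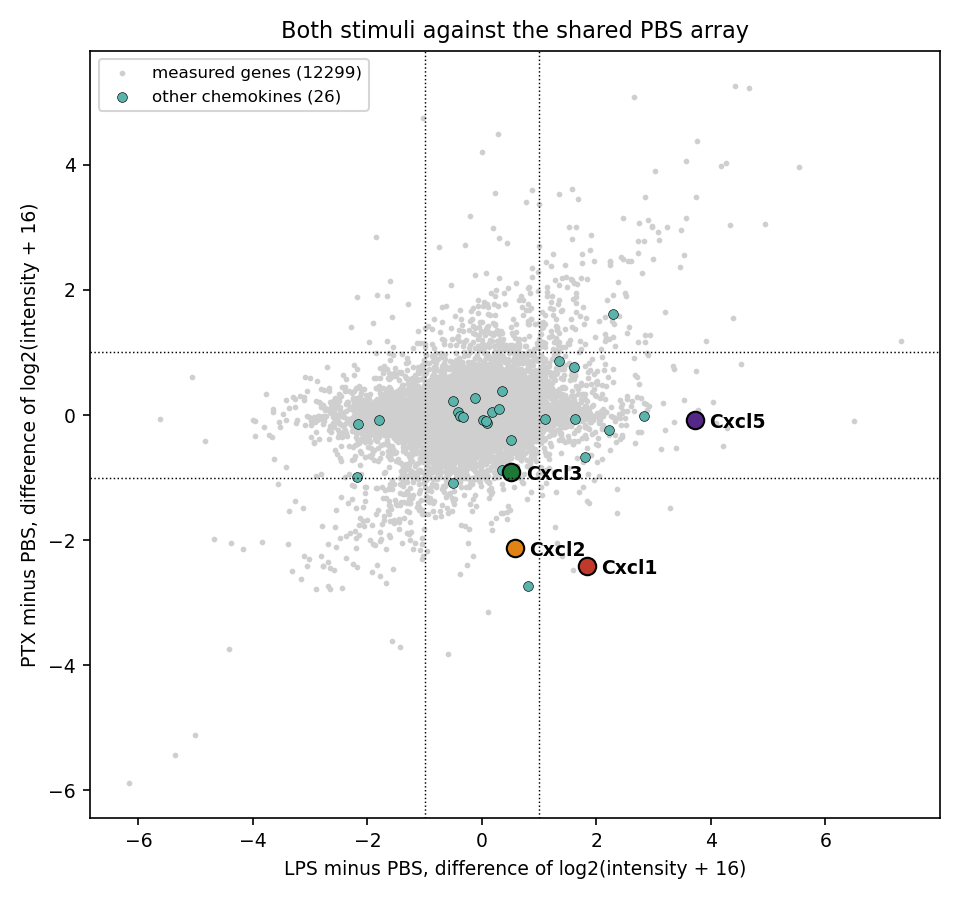
Difference of log2(intensity + 16) of LPS minus PBS (horizontal) and of PTX minus PBS (vertical) for 12299 measured genes (grey), 26 other chemokines (teal) and the 4 members (named), with dotted lines at 2-fold. Both axes use the same PBS array; Cxcl1 (1.83 and -2.41) and Cxcl2 (0.57 and -2.12) lie in the lower right, Cxcl3 (0.51 and -0.90) above them, and Cxcl5 (3.72 and -0.07) far to the right near the horizontal line through 0.

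The genes nearest to each member were taken by the Euclidean distance in that plane, over 3 arrays and with the PBS array shared by both axes. Nearest to Cxcl1 were Ptgs2 (the inducible cyclooxygenase, distance 0.24), Phlda1 (0.47), Ptx3 (pentraxin 3, 0.64), Rgcc (0.83) and the cytokine gene Il6 (1.00). Ptgs2 read 282 (PBS), 889 (LPS) and 37.5 (PTX), and Ptx3 read 1437, 3581 and 337. The labels do not say whether the stimulus PTX is related to pentraxin 3. Within a distance of 0.5 Cxcl1 had 2 other genes, as did Cxcl2, Cxcl5 had 5 and Cxcl3 had 191, so that the pattern of Cxcl3 was shared by many genes.

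Cxcl2 had Akr1c18 (0.47), Il1f9 (the interleukin 1 family cytokine also called interleukin 36 gamma, 0.49), Ptgr1 (0.56), Hsd11b1 (0.58) and Serpinb2 (plasminogen activator inhibitor 2, 0.59) nearest to it. Nearest to Cxcl3 were Dmkn (0.01), Utp6 (0.06), Dusp6 (a phosphatase of ERK kinases, 0.09), Aimp2 (0.10) and Nudt5 (0.10), of which Dmkn was dim, at 58.8 (PBS), 91.3 (LPS) and 24.0 (PTX). Nearest to Cxcl5 were Rprm (0.16), Fstl1 (0.36), the cyclin gene Ccnd2 (0.37), Kctd14 (0.38) and the transcription factor gene Lef1 (0.43). Rprm read 19.5 (PBS), 471 (LPS) and 21.4 (PTX), and Lef1 read 37, 855 and 45.4. Both, like Cxcl5, were above the measured level on the LPS array alone. Between the members themselves the distance was 1.22 for Cxcl2 and Cxcl3, 1.29 for Cxcl1 and Cxcl2, and 3.01 to 3.75 for Cxcl5 and each of the others.

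Of the other CXC chemokine genes of the wider cluster, 5 of 7 were measured. With LPS, Cxcl9, a ligand of the chemokine receptor Cxcr3, was at least 2-fold higher (1.62, and 0.77 with the mean of all probe sets). Ppbp, the platelet chemokine that also binds Cxcr2, was at least 2-fold lower with LPS (-2.18), as was Cxcl11 (-1.80). With PTX none of the 5 was 2-fold apart from PBS as deposited, with Ppbp at -0.99 and Pf4 at 0.05. Ppbp passed 2-fold with median centring (-1.01), with the 75th percentile and with quantile normalization (-1.15), and Cxcl10 with quantile normalization (-1.03). Cxcl9 and Cxcl11 were not measured with the dim filter at the 75th percentile. Ppbp, which lies next to Cxcl5 on the chromosome, read 2597 (PBS), 561 (LPS) and 1301 (PTX), so that it was lowest on the array where Cxcl5 was highest. The median of the 5 was 0.17 with LPS, and -0.17 with quantile normalization. Against PBS it was -0.08 with PTX, and 0.04 with the mean of all probe sets of a gene.

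Among 21 measured chemokines outside the cluster, 7 were at least 2-fold higher and 1 lower with LPS, and 1 was higher and 2 lower with PTX. The 4 highest with LPS were Xcl1 (2.83), Ccl5 (2.29), Ccl2 (2.22) and Ccl3 (1.81), attractants of lymphocytes and monocytes, and Cxcl12 was the lower gene (-2.17). Xcl1, which read 48.7 (PBS), 443 (LPS) and 48 (PTX), was above the measured level on the LPS array alone, like Cxcl5. Cxcl12 was not measured with the dim filter at the 75th percentile or with the mean of all probe sets. With PTX Ccl5 was higher (1.62), and Ccl24 (-1.09, and -0.85 with a pseudocount of 64) was lower along with Ccl17. The median of the 21 was 0.30 with LPS (1.49 with the dim filter at the 75th percentile) and -0.06 with PTX. Against LPS, 6 of these 21 were at least 2-fold lower with PTX and 1 was higher (Cxcl12, 2.02). All 4 members were lower, but Cxcl5 passed the filter through the LPS array alone, so setting these counts side by side supports nothing. Ccl17, a chemokine for T cells bearing Ccr4, was the gene of this list with the most negative PTX difference (-2.73) and read 3217 (PBS), 5637 (LPS) and 470 (PTX).

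The receptors of these chemokines were dim in the cultures. Cxcr2, their main receptor, read 96.4 (PBS), 76.9 (LPS) and 79.2 (PTX), near the measured level on each array. Ackr1, a decoy receptor that binds chemokines without signalling, read 213, 53.4 and 236, and was at least 2-fold lower with LPS (-1.72). Cxcr1 is not analysed here.

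Cytokines that induce neutrophil chemokines differed in part along with them. Of 10 measured inducers and their receptors, 3 were at least 2-fold higher with LPS, namely Il1b (2.67), Il1a (1.88) and Tnf (1.05, and 0.95 with a pseudocount of 64), and none was lower. With PTX Il1a (-1.40) and Tnf (-1.28) were at least 2-fold lower and none was higher, while Il1b, which read 1770 (PBS), 11315 (LPS) and 1844 (PTX), differed by 0.06. Il1a read 1155, 4288 and 427, and Tnf read 296, 631 and 113, each with the same order of arrays as Cxcl1. With median centring 6 of the 10 were at least 2-fold higher with LPS. The median of the list was 0.83 with LPS and -0.07 with PTX. In PTX against LPS 4 of the 10 were at least 2-fold lower, namely Il1a (-3.28), Il1b (-2.61), Tnf (-2.33) and Il1rn (-1.58), and none was higher. Il1r1 (-0.94) passed 2-fold as well with median centring (-1.28).

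Of 5 cytokine genes of neutrophil production 4 were measured, while Il23a was under the measured level on each array. With LPS Il6 (2.36), Csf3 (G-CSF, 1.61), Lif (1.53) and Csf2 (GM-CSF, 1.36) were each at least 2-fold higher. With PTX Il6 was lower (-1.57) and the other 3 lay between -0.10 and 0.18. In PTX against LPS all 4 were at least 2-fold lower, namely Il6 (-3.92), Csf3 (-1.63), Csf2 (-1.46) and Lif (-1.34). Csf3 read 92.7 (PBS), 315 (LPS) and 91.0 (PTX), and Csf2 read 23.8, 86.2 and 21.1, so that PBS and PTX lay close together for both, as they did for Cxcl5. Csf2 and Lif, like Cxcl5, reached the measured level on the LPS array alone. Their calls in LPS against PBS were lost with a pseudocount of 64 (Csf2, 0.78) or the mean of all probe sets (Lif, 0.60). Their calls in PTX against LPS were lost in the same settings (Csf2, -0.82, and Lif, -0.49). A count of higher or lower genes among those that passed the filter thus supports nothing.

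Most genes of the LPS receptor and of NF-kB itself were within 2-fold of PBS, as were most measured genes. Of 12299 measured genes 9899 were within 2-fold with LPS and 11633 with PTX. Of 11 measured receptor and adaptor genes 10 were within 2-fold with LPS, the exception being the LPS-binding protein gene Lbp (-1.50, and -0.96 with a pseudocount of 64), and all 11 were within 2-fold with PTX. Their median with LPS was -0.18 as deposited and 0.14 with median centring. With the mean of all probe sets Tlr4 passed 2-fold with LPS (-1.53, and -0.48 as deposited), and Lbp was not measured. Cd14 passed 2-fold with median centring (1.22) and with the 75th percentile (1.20), and Irak2 with median centring (1.01). Of 13 measured NF-kB, IkB and kinase genes, the feedback inhibitors Tnfaip3 (A20, 1.12) and Nfkbia (IkB alpha, 1.07) were at least 2-fold higher with LPS, and all 13 were within 2-fold with PTX. Both calls with LPS were lost with quantile normalization (0.86 and 0.58), and that of Nfkbia also with the mean of all probe sets (0.97). With PTX the lowest of the 13 were the kinase subunit gene Ikbkg (-0.96), Nfkbiz (-0.94), whose protein IkB zeta works with NF-kB at some late target genes, and Tnfaip3 (-0.87). With quantile normalization these 3 passed 2-fold (-1.05, -1.06 and -1.03), as Ikbkg did with the mean of all probe sets (-1.28). In PTX against LPS 3 of the 13 were at least 2-fold lower, Tnfaip3 (-2.00), Nfkbia (-1.26, and -0.89 with quantile normalization) and Nfkbiz (-1.18, and -0.84 with the mean of all probe sets).

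Some immediate early factors were lower with LPS and others with PTX, and Fosb was called lower with both. Of 13 measured C/EBP, AP-1 and Egr genes 3 were at least 2-fold lower with LPS (Egr2 -1.63, Atf3 -1.61, Fosb -1.24, the last between -0.89 and -0.98 with the other scalings and a pseudocount of 64) and 2 with PTX (Egr1 -2.17, Fosb -1.87), and none was higher in either as deposited. Fosb read 173 (PBS), 63.9 (LPS) and 35.6 (PTX), so its PBS reading was the one that let it through the filter. The calls of Fosb, and the counts that include it, thus support nothing. Of the other genes called, Egr2 (-0.32) and Atf3 (0.67) were within 2-fold with PTX, and Egr1 (-0.95) with LPS. Egr1, a factor induced within minutes of growth factor signals, read 1160 (PBS), 592 (LPS) and 245 (PTX). Of 10 genes for proteins that act on AU-rich messenger RNAs, Zc3h12a, the endonuclease Regnase-1, was at least 2-fold higher with LPS (1.12), and the other 9 were within 2-fold. That call was lost with the mean of all probe sets (0.97) and with a pseudocount of 64, and Zfp36l2 was lower with quantile normalization (-1.03). All 10 were within 2-fold with PTX, and Zfp36 read 1485, 1670 and 1331. Of 7 measured proteases known to cleave these chemokines, Mmp2 was higher (1.35) and Mmp13 lower (-2.15) with LPS, and all 7 were within 2-fold with PTX.

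**Figure D4:**
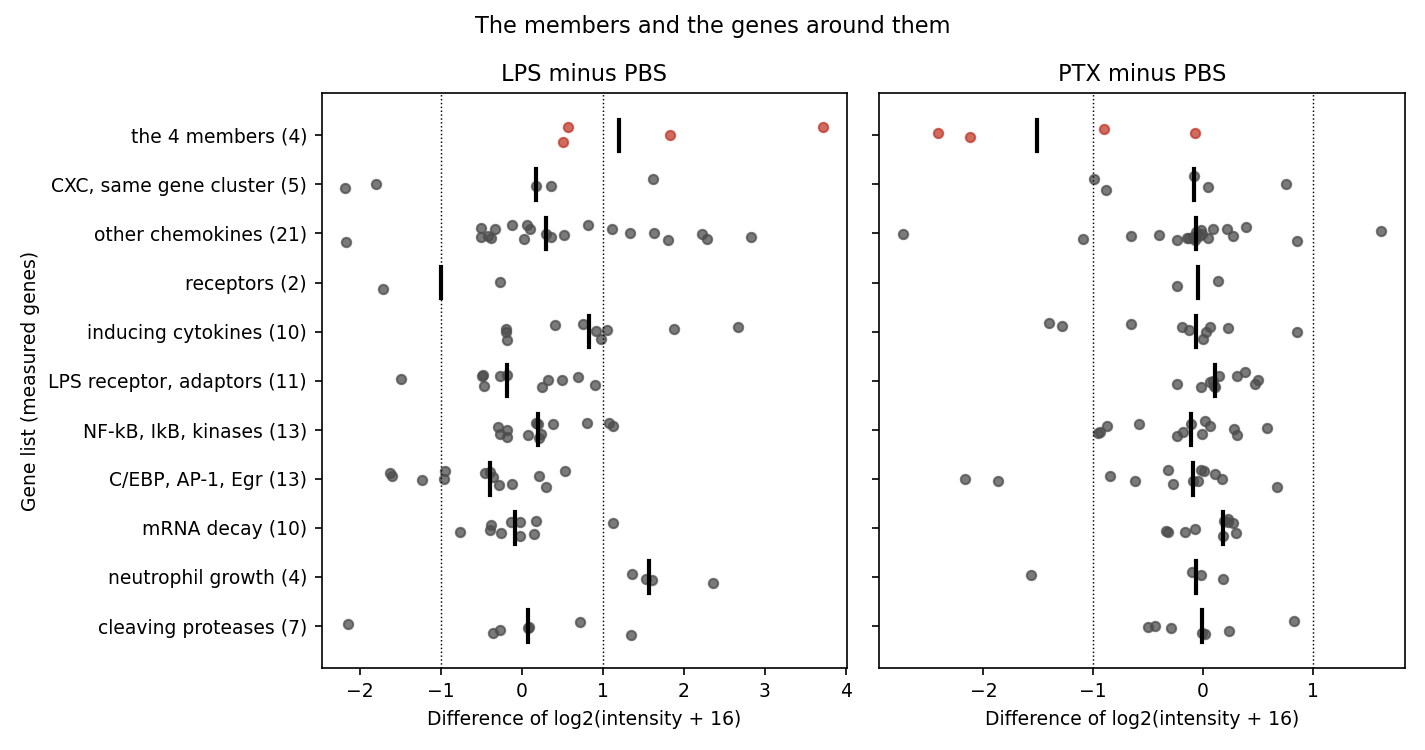
Differences of log2(intensity + 16) of LPS minus PBS (left) and PTX minus PBS (right) for the measured genes of 11 lists, with 1 point per gene, the number of genes in brackets, a black bar at each list's median and dotted lines at 2-fold. The medians of the 4 members (red) are 1.20 and -1.51, and the neutrophil growth list is at 1.57 and -0.06. Cxcl5 among the members and Csf2 and Lif in the growth list passed the filter through the LPS array alone. Setting these LPS medians side by side thus supports nothing. The vertical spread of points within a list carries no meaning.

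Outside the members, 1063 measured genes had the NF-kB consensus motif in the 250 bases before the start. With LPS 80 of them (7.53%) were at least 2-fold higher and 141 (13.3%) lower, and with PTX 37 (3.48%) were higher and 23 (2.16%) lower. Over the 9956 measured genes with a promoter entry these shares were 6.49% and 12.8% with LPS, and 3.03% and 2.38% with PTX. The run GGGAATTTCCC was present in 3 further measured genes, Hpn, Il16 and Zfp84, all within 2-fold under both stimuli.

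Markers of dendritic cells were present on all arrays, as 8 (PBS), 9 (LPS) and 9 (PTX) of 9 genes reached the measured level. With LPS Ccr7 (1.39), Flt3 (1.33) and Cd86 (1.01, and 0.96 with quantile normalization) were at least 2-fold higher, and with PTX Flt3 (1.78). The LPS calls of Flt3 and Cd86 were lost with a pseudocount of 64 (0.96 each). Flt3 was not measured with the dim filter at the 75th percentile. Itgax went the other way with LPS (-0.49) and with PTX (-0.87, and -1.03 with quantile normalization), as did Zbtb46 as deposited (-0.30 and -0.41). Markers of other cells that make or respond to these chemokines moved between arrays as well, and their part in the results was not tested. The intensities of 11 neutrophil markers summed to 19134 (PBS), 36627 (LPS) and 16818 (PTX), with 8, 7 and 7 at the measured level. Lcn2, a gene of the acute phase as well as of neutrophil granules, carried that difference, reading 1217, 18575 and 2779, and the other 10 summed to 17916, 18052 and 14039. Of 9 measured, Lcn2 (3.91) and Camp (1.66) were at least 2-fold higher and Ltf (-1.05) and S100a9 (-1.0) lower with LPS. The lower calls were lost with median centring (-0.73 and -0.68) and with the 75th percentile (-0.82 and -0.70). Camp (70.7, 259 and 37.7) reached the measured level on the LPS array alone. Ltf (97.3, 38.6 and 78.6) reached it on the PBS array alone, so the LPS calls of Camp and Ltf support nothing. With PTX Csf3r (2.07) and Lcn2 (1.18) were higher and S100a9 (-1.82) lower. The neutrophil granule genes Mpo and Elane were under the measured level on all 3 arrays. Macrophage markers summed to 21689, 33761 and 36424 with all 9 at the measured level. They went both ways with LPS, where Fcgr1 (2.73), Adgre1 (1.40) and Cd68 (1.17, and 0.81 with quantile normalization) were at least 2-fold higher, Mrc1 was lower (-2.05) and the complement genes C1qa, C1qb and C1qc lay between -0.72 and -0.63. With PTX Fcgr1 (2.79) and Mertk (1.78) were higher and none was lower, and 5 of the 9 were at least 2-fold higher with PTX than with LPS (Mrc1 2.15, C1qc 1.71, Mertk 1.57, C1qa 1.54, C1qb 1.38).

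The remaining marker lists were dimmer apart from platelet genes. Mast cell and eosinophil markers summed to 429 (PBS), 2137 (LPS) and 308 (PTX), with 2, 3 and 1 of 7 at the measured level, and Prg2, an eosinophil granule gene, read 117, 1274 and 31.4 (3.28 with LPS, and with PTX -1.49, or -0.92 with a pseudocount of 64), while Cpa3 was higher with LPS (2.33). That is the same order of arrays as in Cxcl1. Stromal markers summed to 361, 730 and 383 with 1, 2 and 1 of 7 at the measured level, and Dcn (decorin) read 40.8, 373 and 52.5. Epithelial markers summed to 691, 701 and 477 with 2, 3 and 2 of 5 at that level, and Krt5 (1.45 with LPS) read 55.4, 179 and 52.8. Cdh1, the gene of E-cadherin, read 408, 256 and 178, and was the list's gene at least 2-fold lower with PTX (-1.13, and -0.96 with a pseudocount of 64). Dcn and Krt5, like Cxcl5, were above the measured level on the LPS array alone. Endothelial markers summed to 1129, 465 and 1801 with 1 of 4, the receptor gene Kdr, at the level on each array (-1.52 with LPS). Platelet markers, which include Ppbp and Pf4, summed to 8247, 7077 and 7117 with 4 of 5 at that level. Of the others Gp1bb was higher with LPS (1.24, and 0.90 with a pseudocount of 64). Gp1bb read 68.9, 184 and 77.3, above the measured level on the LPS array alone. No marker was at the lowest value of the table, and 0 does not occur in it.

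**Figure D5:**
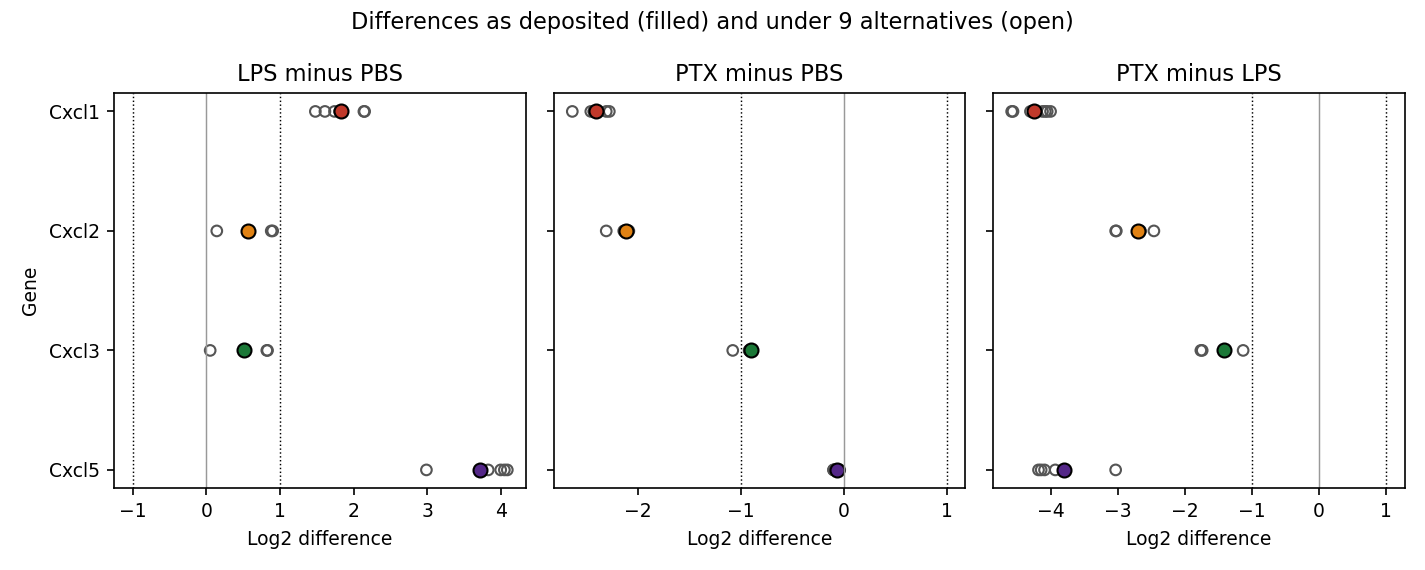
Log2 differences of the 4 members in the 3 comparisons as deposited with a pseudocount of 16 (filled) and under 9 alternatives of pseudocount, scaling, filter and probe set rule (open), with dotted lines at 2-fold and a grey line at 0. Cxcl3 with quantile normalization in PTX minus PBS (-1.08) is the open point on the other side of a dotted line from its filled point (-0.90).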

How the data were processed

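Gene expression of mouse bone marrow-derived dendritic cells was read on 3 Affymetrix arrays, 1 each for PBS, LPS and PTX, which groups the labels' treatment gives. Per the labels' protocols, 3 µg of total RNA was made into biotin-labelled cRNA. The deposited table holds 1 linear intensity per probe set. Which program summarized the probes, and with what background correction and scaling, is not given in the sources used here.

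Intensities were used as deposited, and differences were taken on the log2(intensity + 16) scale in Python 3.11.15 with pandas 2.3.3 and numpy 2.4.6. Of 45101 probe sets, 64 were controls, 34945 had 1 gene symbol, 932 several and 9160 none; only those with 1 were used for genes. A gene was represented by its brightest probe set (mean over the arrays). The steps were tested on simulated data with planted differences. That checks the code and says nothing about the noise of 1 array a group.

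Members and lists were chosen with earlier results of these data known. Named were the members, up to 4 genes per list with the largest differences among those 2-fold apart in LPS or PTX against PBS (counts of 5 or fewer in full), and the 5 nearest genes per member, without predicted genes. Genes named for an order of arrays, a cell type or a low value were picked after their values were seen. Promoter stretches come from RefSeq (GRCm38.p6). The 9 alternatives varied pseudocount (1 or 64), scaling, dim filter and probe set rule.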

Additional observations from a re-analysis of the deposited data

How the results depend on the processing

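The counts of members at least 2-fold apart did not move by over 1.5 times in any of the 9 alternatives, and of 108 recomputed member differences 107 kept their sign and their side of the 2-fold limit. The exception was Cxcl3 in PTX against PBS (-1.08 with quantile normalization, -0.90 as deposited). Cxcl5 is dim with PBS and PTX, so its LPS difference ran from 2.99 (pseudocount of 64) to 4.09 (pseudocount of 1). The 30 recomputed differences of the other Cxcl1 probe sets kept sign and side.

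Counts over all genes moved more. In LPS against PBS the 799 higher genes became 1449 with median centring and 1367 with the 75th percentile, and the 1601 lower genes became 1019 with a pseudocount of 64, 1045 with median centring and 775 with the dim filter at the 75th percentile. In PTX against LPS the 1681 higher genes became 1101, 1070 and 883 in the same settings, and the 767 lower genes became 1575 with median centring and 1468 with the 75th percentile. Of 966 recomputed list counts 87 moved by over 1.5 times, and the median of the platelet markers in LPS against PBS went from 0.17 to -1.0 with the dim filter at the 75th percentile. The causes were not tested, apart from the fewer genes that the stricter filter leaves. No paired analysis was possible because each group held 1 array, and no array could be left out.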
